A study of Solanum lycopersicum with 9 samples.

Results

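CAT2 and DHAR1 are tomato genes for redox enzymes, and their transcripts were followed in red ripe fruit after antisense silencing of Asr1, a gene named for abscisic acid, stress and ripening. They are 2 of the 802 genes that the platform annotation names. All probe sets with either symbol were taken: 1 for CAT2 and 2 for DHAR1, whose identifiers end in A1 and S1, or 3 of the 10038 probe sets tested. The pair was chosen by earlier results on these arrays, the lower CAT2 signal in silenced fruit and the place of both genes in redox metabolism. The groups were the antisense line AS5, the antisense line AS17 and wild type (WT), all of cultivar Money Maker grown in one set of greenhouse conditions, with 3 pools of red ripe fruit mesocarp in each group. A pool held mesocarp of 2 fruits, and 3 plants per line were used. The silencing is represented by 2 lines, so n counts pools and not independent transformation events. The sources used here do not name the construct's promoter. Since no probe set carried the symbol Asr1, the silencing itself was not examined.

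Catalase breaks hydrogen peroxide down to water and oxygen without a reducing partner, mainly in peroxisomes. Ascorbate peroxidase removes the same molecule at the expense of ascorbate, the vitamin C for which tomato fruit is known. The oxidised ascorbate is regenerated by monodehydroascorbate reductase and by dehydroascorbate reductase (DHAR), which draws electrons from glutathione. CAT2 thus stands for the first route and DHAR1 for the recycling step of the second. RefSeq assembly SLM_r2.1, used for names only, lists "catalase" as the synonym of CAT2 and "DHAR" as that of DHAR1.

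Expression is given as the authors' deposited log2 values from RMA, which subtracts background, puts the arrays on a common scale and combines the probes of a probe set. A difference of 1 is thus a doubling on this scale, and levels of different probe sets are not compared. The background level of an array was set at the 95th percentile of its 63 reporter-gene control probe sets, and lay between 1.57 and 1.98 in silenced pools and between 1.41 and 1.56 in WT pools. All 3 members were above it on all 9 arrays. AS5 pool 3 and AS17 pool 1 stood apart from the other 7 arrays on the first principal component of all probe sets (33.4 and 35.0, against -27.2 to 12.5), and values without them are given below. These arrays also had the smallest gaps between 3′ and 5′ control probe sets, a measure that RNA quality can move. For gapdh the gap was 0.62 on AS5 pool 3 and 0.55 on AS17 pool 1, against 0.83 to 1.06 on the other 7, and for ubiquitin it was 1.12 and 1.36, against 1.41 to 1.75. The part of RNA quality in the results was not tested. Of 18 symbols of ripe fruit, 11 genes were named on the array, and 12 of their 13 probe sets were above background on all arrays. Their mean level was 9.59 to 9.87 in silenced pools and 9.33 to 9.37 in WT pools. It was 9.90 to 10.30 in silenced pools and 9.94 to 10.03 in WT pools without the 1 probe set that passed the test. That probe set, of the phytoene synthase gene Psy1 of fruit carotenoid synthesis, stood at 5.16, 5.02 and 6.90 in AS5 pools, at 7.52, 4.64 and 4.33 in AS17 pools, and at 1.40, 2.37 and 1.55 in WT pools. Its measured log2 difference was 3.82 for the mean of both lines (limma adjusted p = 0.0421), with 2 of the 3 WT arrays at or below background. Its part in the results was not tested. The mean level of 4 genes of green tissue (4.11 to 5.06 in silenced pools, 4.35 to 5.16 in WT pools) and of 2 epidermis genes (2.91 to 4.32 in silenced pools, 3.18 to 3.32 in WT pools) overlapped between silenced and WT fruit. Above background on all arrays were 3 of the 4 green-tissue probe sets and 1 of the 2 epidermis probe sets. No gene of the seed or vascular lists was named.

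CAT2 was lower in the silenced fruit. It stood at 6.75, 6.56 and 6.45 in AS5 pools 1, 2 and 3, at 6.40, 6.02 and 6.17 in AS17 pools 1, 2 and 3, and at 7.23, 7.46 and 7.01 in WT pools 1, 2 and 3. Every silenced pool was below every WT pool, with a gap of 0.26 between the highest silenced and the lowest WT value. The order of group means was AS17 (6.19 ± 0.19), AS5 (6.59 ± 0.15) and WT (7.23 ± 0.22; SD, n = 3 each), from low to high.

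The mean of both lines was 0.84 below WT (log2 difference -0.84, SE 0.14), which is 1.79-fold lower. The differences were -0.65 (SE 0.16, 1.57-fold lower) for AS5 and -1.04 (SE 0.16, 2.06-fold lower) for AS17, and both use the same WT pools. These values are a description: CAT2 was taken up because an earlier analysis of the same arrays had called it lower in AS17 and in the mean of both lines, so no test is given for them. For scale, 1.28% of all probe sets passed the test used here for the mean of both lines (0.887% in the lower direction), and the 6 silenced pools lay wholly below the 3 WT pools for 4.32% of probe sets. Less CAT2 RNA per cell and fewer of the cells that carry it cannot be told apart in pooled tissue. With AS5 pool 3 and AS17 pool 1 left out, the difference was -0.86 for the mean of both lines.

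**Figure D1:**
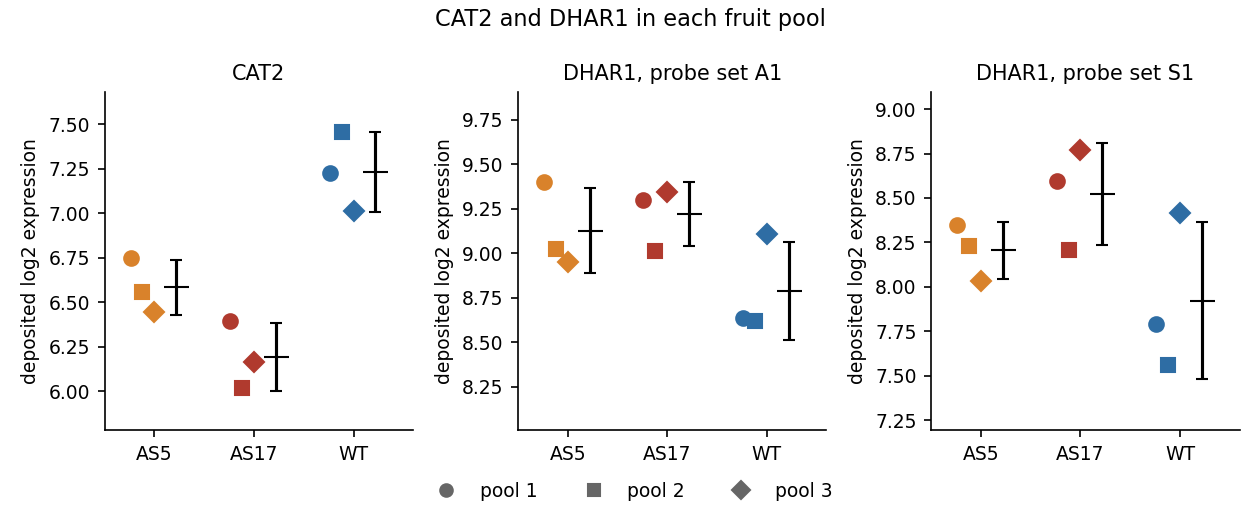
Deposited log2 expression of CAT2 and of the DHAR1 probe sets A1 and S1 in each fruit pool of AS5, AS17 and WT. Symbols mark pools, and black bars give the group mean ± SD (n = 3). The vertical scale spans the same log2 range in each panel and does not start at 0. CAT2 separates silenced from WT pools, while both DHAR1 probe sets overlap through WT pool 3.

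DHAR1 was measured at somewhat higher levels in silenced fruit by both probe sets, with overlap between the groups. Probe set A1 stood at 9.40, 9.02 and 8.95 in AS5 pools 1, 2 and 3, at 9.30, 9.01 and 9.34 in AS17 pools 1, 2 and 3, and at 8.64, 8.62 and 9.11 in WT pools 1, 2 and 3. All 6 silenced pools exceeded the WT mean, but only 3 exceeded WT pool 3, the highest of the WT pools. Probe set S1 stood at 8.35, 8.23 and 8.03 in AS5 pools 1, 2 and 3, at 8.59, 8.21 and 8.77 in AS17 pools 1, 2 and 3, and at 7.79, 7.56 and 8.41 in WT pools 1, 2 and 3. Again all 6 silenced pools exceeded the WT mean, and 2 of them, both of AS17, exceeded WT pool 3.

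The group means of A1 were 9.12 ± 0.24 in AS5, 9.22 ± 0.18 in AS17 and 8.79 ± 0.28 in WT (SD, n = 3 each). Those of S1 were 8.21 ± 0.16 in AS5, 8.52 ± 0.29 in AS17 and 7.92 ± 0.44 in WT (SD, n = 3 each). The mean of both lines differed from WT by 0.38 (SE 0.16) for A1 and by 0.44 (SE 0.20) for S1, or 1.31-fold and 1.36-fold. Against the same WT pools, AS5 differed by 0.34 (SE 0.18) for A1 and 0.28 (SE 0.23) for S1, and AS17 by 0.43 (SE 0.18) and 0.60 (SE 0.23). These contrasts too were known when the gene was chosen and are given without a test. Single WT pools moved the difference for the mean of both lines: it was 0.54 for A1 and 0.69 for S1 without WT pool 3, and 0.30 for A1 and 0.26 for S1 without WT pool 2. In AS5 the difference was 0.20 for A1 without AS5 pool 1, and for S1 it ran from 0.10 without WT pool 2 to 0.53 without WT pool 3. Without AS5 pool 3 and AS17 pool 1 it was 0.41 for A1 and 0.47 for S1.

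The 2 DHAR1 probe sets ordered the arrays in much the same way. Over the 9 arrays, which share the normalisation, their values had a Pearson r of 0.92 and a Spearman rho of 0.90. The deviations from the group means had an r of 0.90, so the likeness was also present among pools of 1 line. The difference between the probe sets had an SD of 0.16 over the arrays, against 0.28 for A1 and 0.38 for S1 themselves. Both probe sets thus recorded similar differences between pools of a group, with WT pool 3 high in both and AS17 pool 2 the lowest of its line in both. Since both were read on the same arrays, a difference in DHAR1 RNA and an effect of the whole array cannot be told apart here. These 2 probe sets carry 1 gene symbol and are not independent measurements of the condition.

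**Figure D2:**
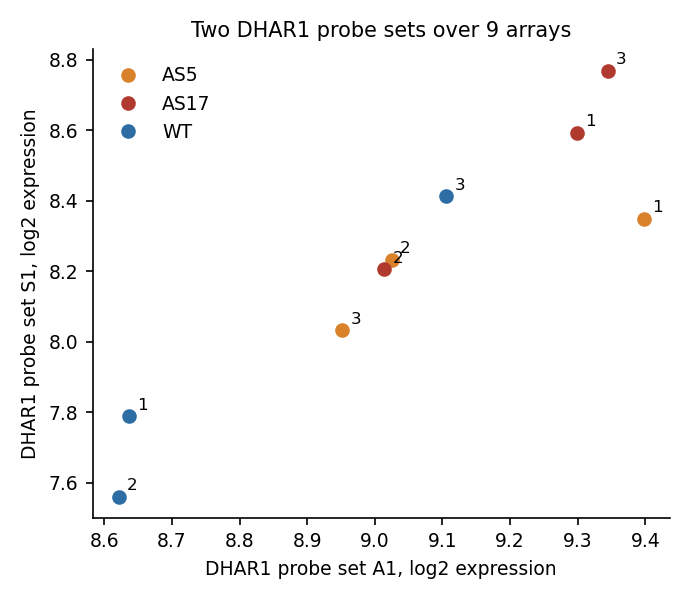
DHAR1 probe set A1 (horizontal axis) against probe set S1 (vertical axis), both in deposited log2 units, for the 9 arrays. Colours mark AS5, AS17 and WT and digits mark pools. WT pools 1 and 2 lie at the low end, and WT pool 3 (9.11 and 8.41) lies among the silenced pools.

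The lines were compared with each other to see whether they differed in these genes. CAT2 was lower in all 3 AS17 pools than in all 3 AS5 pools, by 0.39 (log2 difference -0.39, SE 0.16, 95% interval -0.75 to -0.04). This did not pass over all probe sets (limma adjusted p = 0.82). Such a separation with AS17 below AS5 occurred in 7.02% of all probe sets. CAT2 was chosen with its fall in AS17 known, and the same AS17 pools enter here. That choice favours AS17 below AS5, so the CAT2 interval is a description. In this contrast 0 of 10038 probe sets passed in limma and 591 (5.89%) had an unadjusted p under 0.05. DHAR1 differed between AS17 and AS5 by 0.09 (95% interval -0.32 to 0.51, limma adjusted p = 0.976) for A1 and by 0.32 (95% interval -0.21 to 0.84, limma adjusted p = 0.905) for S1, and the pools overlapped. Without AS5 pool 3 and AS17 pool 1, AS17 minus AS5 was -0.56 for CAT2, -0.03 for A1 and 0.20 for S1, and none passed. The intervals leave room for differences in DHAR1 of either sign.

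The other redox genes show what surrounds these members. A list of symbols for peroxide removal, ascorbate and glutathione metabolism, superoxide dismutation and related functions matched 29 further genes with 35 probe sets, and 24 of the genes were above background on all arrays. The annotation gives no product names, so a symbol may stand for another product than the list intends. For the mean of both lines, 0 of the 29 genes passed, against 1.28% of all probe sets. At an unadjusted p under 0.05 there were 5 of 29 (17.2%), against 15.5% of all probe sets. Their median log2 difference was -0.02, against 0.00 for all probe sets, and 13 genes were measured higher and 16 lower. In AS5 against WT, 0 genes passed (0.379% of all probe sets) and 4 (13.8%) had an unadjusted p under 0.05, against 9.24% of all probe sets. In AS17 against WT, 1 passed, CITRX (1.34% of all probe sets), and 4 (13.8%) had an unadjusted p under 0.05, against 17.3% of all probe sets. These shares are near the background, so the list as a whole gives no result. Between AS17 and AS5, 0 of the 29 passed, as did 0 of all probe sets. At an unadjusted p under 0.05 there were 2 (6.90%), against 5.89% of all probe sets, which is again near the background.

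**Figure D3:**
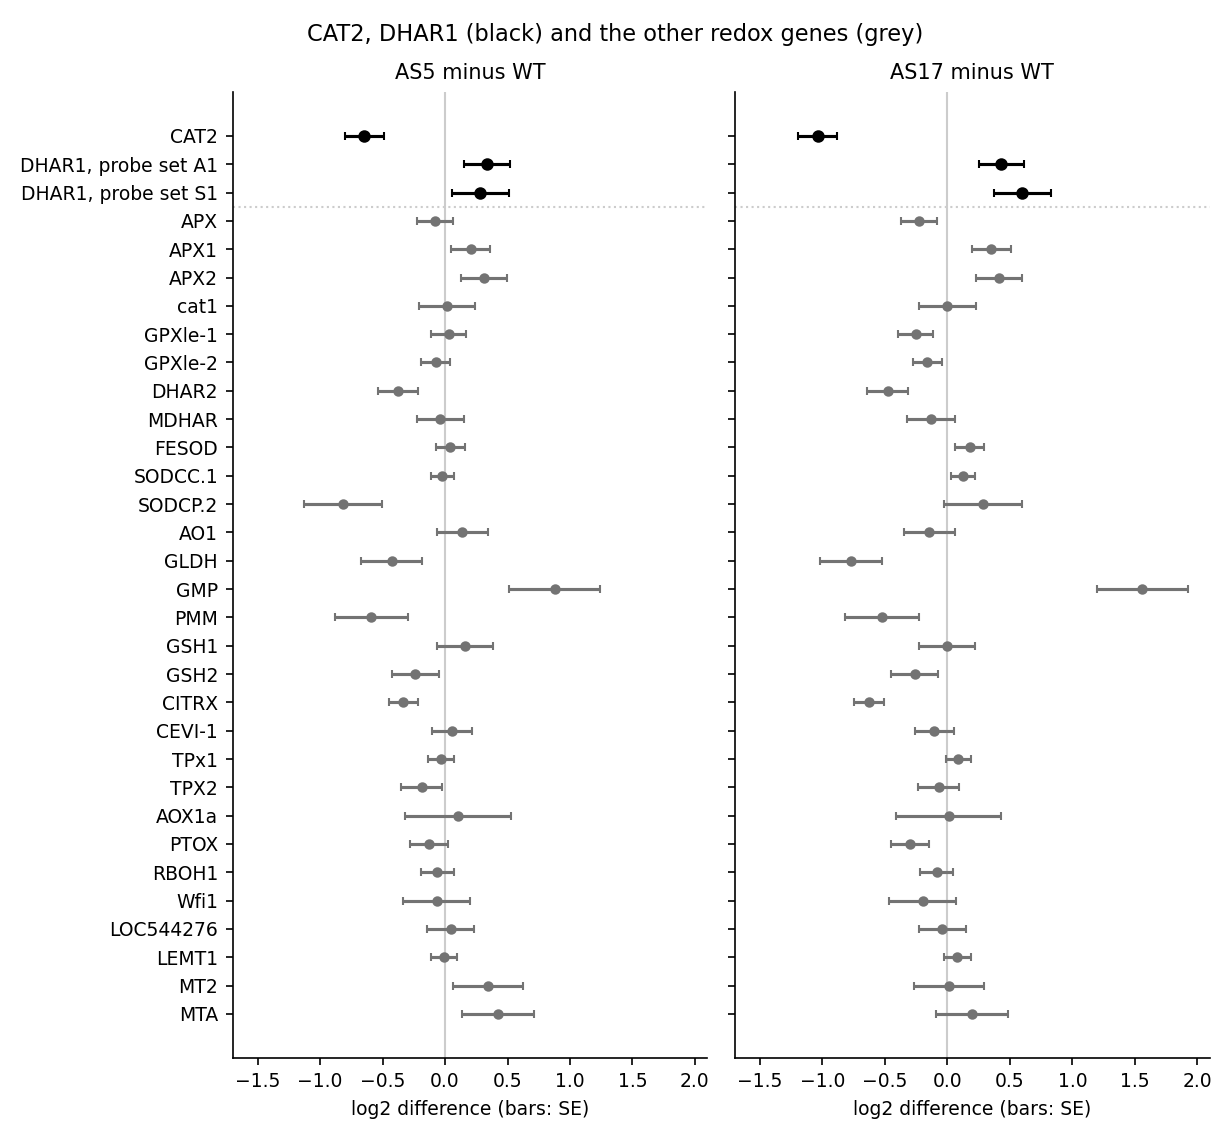
Log2 differences from WT in AS5 (left) and AS17 (right), with limma standard errors as bars, for CAT2 and the DHAR1 probe sets (black) and for 29 other redox genes (grey, 1 probe set per gene). Both panels subtract the same WT pools. CAT2 lies at -0.65 and -1.04, DHAR2 at -0.38 and -0.48 and GMP at 0.88 and 1.56 in AS5 and AS17. CEVI-1, TPX2, RBOH1, Wfi1 and LOC544276 were at or below background on 5 or more of the 9 arrays, so their points are not measured changes.

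Among genes for hydrogen peroxide removal, 0 of 6 passed in any contrast, against 0 to 1.34% of all probe sets. At such shares the count gives no result about this group. The second catalase symbol, cat1, stood at 10.26, 10.56 and 10.68 in AS5 pools, at 10.84, 10.09 and 10.52 in AS17 pools, and at 10.14, 10.57 and 10.74 in WT pools. Silenced and WT pools covered the same range, and the mean of both lines differed from WT by 0.01 (SE 0.19, limma adjusted p = 0.992), with a 95% interval of -0.43 to 0.45. Its direction is not settled, since quantile normalisation gives -0.05.

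The ascorbate peroxidase genes APX1 and APX2 were measured at 0.28 (SE 0.13) and 0.36 (SE 0.16) and did not pass (limma adjusted p = 0.367 and 0.322). A further symbol, APX, was at -0.15 (SE 0.12). The glutathione peroxidase genes GPXle-1 and GPXle-2 were at -0.11 (SE 0.12) and -0.12 (SE 0.10). None of these 3 passed either (limma adjusted p from 0.61 to 0.714).

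In the ascorbate-glutathione cycle, DHAR2, the other dehydroascorbate reductase gene named on the array, was measured lower, the opposite sign to DHAR1. It stood at 8.84, 8.76 and 8.53 in AS5 pools, at 8.35, 8.85 and 8.62 in AS17 pools, and at 9.14, 9.23 and 8.89 in WT pools. Every silenced pool was below every WT pool, as in 4.32% of all probe sets, and the mean of both lines differed by -0.43 (SE 0.14), but this did not pass (limma adjusted p = 0.196). MDHAR, for monodehydroascorbate reductase, was low on the arrays and differed by -0.08 (SE 0.16, limma adjusted p = 0.86).

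In ascorbate synthesis, GMP and GLDH had the smallest p when each gene was represented by its brightest probe set. PMM, another symbol of this group, had probe sets low on the arrays. They differed by -0.56 (SE 0.25, the brightest), -0.47 (SE 0.15) and -0.28 (SE 0.18) for the mean of both lines. None of them passed, although the second had a smaller limma adjusted p (0.189) than GLDH. GMP, a symbol for the enzyme that makes GDP-mannose at the start of the pathway, stood at 7.05, 6.74 and 7.95 in AS5 pools, at 8.44, 7.28 and 8.08 in AS17 pools, and at 6.07, 6.64 and 6.39 in WT pools. Every silenced pool was above every WT pool, as in 4.73% of all probe sets. The log2 difference of 1.22 (SE 0.32) for the mean of both lines did not pass (limma adjusted p = 0.118). A second, dimmer GMP probe set, at background on 1 array, had a measured difference of 0.70. GLDH, for the last step to ascorbate, differed by -0.60 (SE 0.21, limma adjusted p = 0.235) in the mean of both lines. It stood at 5.30, 5.36 and 5.49 in AS5 pools, at 5.68, 4.61 and 4.84 in AS17 pools, and at 5.84, 5.94 and 5.65 in WT pools. For GLDH the silenced and WT pools overlapped.

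CITRX, a thioredoxin known in tomato for binding the Cf-9 resistance protein, was the list gene that passed in AS17. It stood at 7.25, 7.34 and 7.35 in AS17 pools and at 7.98, 8.07 and 7.77 in WT pools, with no overlap, as in 12.5% of all probe sets. It fell by 0.63 (SE 0.12, limma adjusted p = 0.0441) in AS17. The adjusted p ran from 0.0366 to 0.199 over 18 alternatives, and the call was lost in 13 of them, including each of the 9 fits with 1 array left out (0.0501 to 0.199). In AS5, with pools at 7.64, 7.49 and 7.70, it differed by -0.33 (SE 0.12, limma adjusted p = 0.423). AS17 and AS5 did not differ by the test (-0.29, SE 0.12, limma adjusted p = 0.82).

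Of the superoxide dismutase genes, SODCP.2, for a plastid copper-zinc enzyme, differed from WT by -0.82 (SE 0.31, limma adjusted p = 0.461) in AS5. In AS17 SODCP.2 differed by 0.29 (SE 0.31, limma adjusted p = 0.696), less than its SE, so its sign there is not settled. It stood at 6.16, 6.66 and 6.98 in AS17 pools, at 5.33, 6.00 and 5.17 in AS5 pools, and at 6.02, 6.85 and 6.08 in WT pools. AS17 was 1.10 above AS5 (SE 0.31) with no overlap, as in 1.24% of all probe sets, and did not pass (limma adjusted p = 0.764). FESOD, for the iron enzyme, differed from WT by 0.11 (SE 0.10, limma adjusted p = 0.658) in the mean of both lines. A second, dimmer FESOD probe set, above background on all 9 arrays, differed by -0.16 (SE 0.14, limma adjusted p = 0.629). The sign for FESOD is therefore not settled.

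In the other groups 0 genes passed, against 0 to 1.34% of all probe sets over the contrasts, which gives no result about them. GSH1 and GSH2, which make glutathione in consecutive steps, differed by 0.08 (SE 0.19) and -0.25 (SE 0.16) for the mean of both lines. PTOX, the plastid terminal oxidase, was at -0.21 (SE 0.13), and the metallothionein symbols MT2 and MTA at 0.18 (SE 0.24) and 0.31 (SE 0.25). TPx1 was at 0.03 (SE 0.09). RBOH1, an NADPH oxidase gene, was at or below background on all 9 arrays, TPX2 on 8 of them, and LOC544276, with the synonym ICL, on 5, so no fold is given for them.

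Named genes with the pattern most like each member were sought among those above background on all arrays, by Pearson r of log2 values over the 9 arrays. For CAT2, 575 named genes were compared. The highest values belonged to NP24-I, an osmotin-type defence protein (r = 0.96), ER1 (0.96) and PYRB, a symbol for aspartate carbamoyltransferase of pyrimidine synthesis (0.95). Part of this likeness lies between the groups: r of the deviations from group means was 0.66 for NP24-I, 0.70 for ER1 and 0.88 for PYRB. PYRB had 3 probe sets, and the least alike of them had an r of 0.02 with CAT2. NP24-I stood at 10.67, 10.83 and 10.48 in AS5 pools, at 10.13, 9.70 and 9.73 in AS17 pools and at 12.03, 11.91 and 11.74 in WT pools. Its order of groups was that of CAT2, which its choice by r over these arrays favours.

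For DHAR1, TCTP, the translationally controlled tumour protein, was among the most alike for both probe sets, with r = 0.85 for A1 and 0.95 for S1. Within groups the r was 0.75 and 0.90. TCTP itself spanned little, at 11.60, 11.58 and 11.57 in AS5 pools, 11.62, 11.58 and 11.73 in AS17 pools and 11.51, 11.45 and 11.60 in WT pools. For A1, PDH (0.88) and CDKA1, a cyclin-dependent kinase (0.83), completed the list, and for S1 SUT4, a sucrose transporter (0.87), and matriochka (0.84). SUT4 had 2 probe sets, and the less alike of them had an r of 0.59 with S1. All these named genes are the extremes of 575 genes over 9 points, and no p is given for them. Without AS5 pool 3 and AS17 pool 1, r was 0.96 for NP24-I with CAT2 and 0.98 for TCTP with S1, but other genes took the first 3 places for CAT2 and for A1. Of 6691 unnamed probe sets above background on all arrays, 1 was more like CAT2 than NP24-I was, and 1 was more like S1 than TCTP was. For the other named genes of S1 there were 15 (SUT4) and 25 (matriochka). For A1 there were 12 (PDH), 23 (TCTP) and 36 (CDKA1), so its named genes were not the closest on the array.

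**Figure D4:**
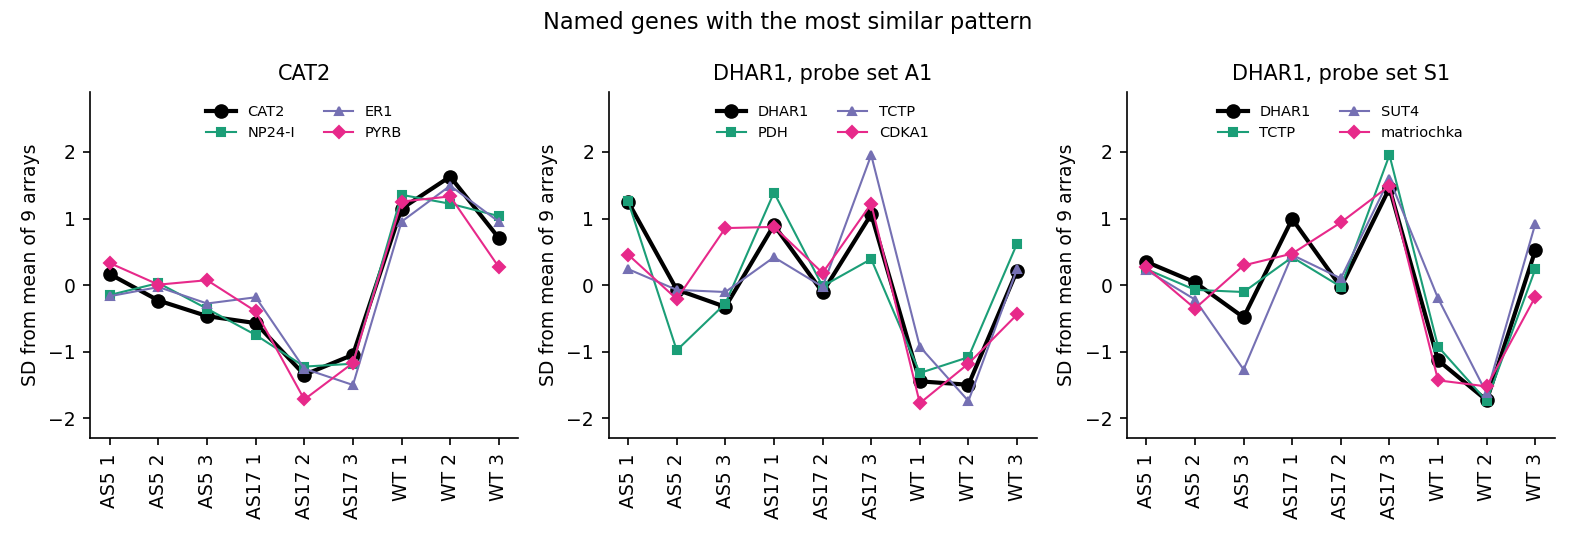
Each member (black) and the 3 named genes with the highest Pearson r over 9 arrays, as SDs from the gene's own mean over the arrays. Lines only join points of 1 gene, since pools have no order. CAT2 and its neighbours are low in AS17 and high in WT, and DHAR1 itself is low in WT pools 1 and 2 and higher in WT pool 3 in both of its panels.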

How the data were processed

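The 9 single-sample Affymetrix arrays were used as 1 table of log2 values deposited by the authors, made with RMA per the submitters' processing notes. The sources used here give neither its version nor its settings. No further scaling was applied. The 171 control probe sets were left out, which left 10038. Genes were named from the platform annotation (909 probe sets with 1 symbol, 0 with several, 9129 without), of which 885 matched RefSeq by gene identifier. Several probe sets of a list gene were represented by the brightest over all arrays. Limma 3.58.1 in R 4.3.3 (lmFit, eBayes) was fitted with 1 mean per group on all 9 arrays, with Benjamini-Hochberg adjustment over all probe sets and a threshold of 0.05. SE is limma's. The code was tested on simulated data. Figures used matplotlib 3.10.9.

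The members, gene lists and alternatives were chosen with earlier results of these data known. Text names CAT2 and DHAR1, list genes that passed in any contrast, all list genes of peroxide removal and the ascorbate-glutathione cycle, 2 genes with the smallest p of each other group, and 3 genes most like each member. PMM is named as well, because a dimmer probe set of it had a smaller p than GLDH. FER and TMT were dropped from the list after matching, since their symbols are ambiguous. Pool numbers were not treated as pairs in the main fit. Deviations of same-numbered pools correlated at -0.38 to 0.55, over 0.1 in 2 of 9 pairs. With 3 pools per group this cannot show that same-numbered pools shared no batch, so a fit with pool number as a block is given below. The number of arrays limits precision.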

Additional observations from a re-analysis of the deposited data

How the results depend on the processing

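Over 18 alternatives the log2 difference of CAT2 from WT ran from -0.953 to -0.73 for the mean of both lines, and those of DHAR1 from 0.301 to 0.543 (A1) and from 0.262 to 0.689 (S1), all within 1 residual SD of the value reported (the SD between pools of a group in the limma fit: 0.191 for CAT2, 0.235 for A1 and 0.318 for S1). Some alternatives cannot move these differences: the filter on dim probe sets, the other eBayes settings, the replicate block and fitting only the groups compared. The ranges therefore come from the remaining ones. For DHAR1 1 residual SD is also a wide bound, beside differences of 0.38 (A1) and 0.44 (S1). The AS17 minus AS5 differences did not pass in any of the 18, at adjusted p from 0.339 for CAT2. For A1 that difference was -0.0322 without both AS5 pool 3 and AS17 pool 1. The count of probe sets that passed is less stable. For the mean of both lines it was 128, against 556 with array weights, 78 with pool number as a replicate block, 208 without AS5 pool 3 and AS17 pool 1, and 27 to 110 with 1 array left out. For AS5 it was 38, against 200 with array weights and 18 to 38 with 1 array left out. For AS17 it was 135, against 311 with array weights, 74 with the replicate block, 47 with only AS17 and WT arrays, 315 without both arrays, and 20 to 140 with 1 array left out. Fewer arrays were fitted in the last.

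Redox genes that passed for the mean of both lines numbered 0, against 3 with array weights (GLDH, GMP and CITRX), 1 without both arrays (GLDH) and 0 to 1 with 1 array left out (GLDH without AS17 pool 1). In AS17 there was 1, against 3 with array weights, 0 with median centring, the replicate block or only AS17 and WT arrays, and 0 to 1 with 1 array left out (GMP without AS5 pool 3, GLDH without AS17 pool 1). CITRX had an adjusted p of 0.103 in AS17 with the replicate block and 0.0565 with median centring. Keeping FER and TMT, an alternative chosen after seeing the data, changed no count.

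Small differences that did not pass changed sign. With quantile normalisation cat1 was at -0.047 and TPx1 at -0.0181. With array weights SODCP.2 was at 0.0244 and GSH1 at -0.0118. Without both arrays cat1 was at -0.126 and GSH1 at -0.00777. With 1 array left out, cat1 ran from -0.162 to 0.134, SODCP.2 from -0.414 to 0.00251, GSH1 from -0.0582 to 0.202, TPx1 from -0.00608 to 0.0945 and MT2 from -0.0315 to 0.519. MTA kept its sign but ran from 0.0704 without WT pool 1 to 0.677 without WT pool 3. The causes were not tested. No alternatives are given for TPX2, RBOH1 and LOC544276, for which no value is reported. Of the 3 genes most like each member, 0 were among the first 3 for CAT2 and for A1 without both arrays, and 2 for S1.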
